A study of Caenorhabditis elegans with 5 samples.

Results

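Cytosolic ribosomal protein genes are here those named rpl- or rps- with a number, together with rla-0, rla-1 and rla-2, which encode stalk proteins. They were chosen by name alone, with no measured value used, and 78 of the 19176 features of the count tables carried such a name. Of these, 44 encode proteins of the large subunit (rpl), 31 encode proteins of the small subunit (rps) and 3 encode stalk proteins (rla). A further 3 genes with names of this form in the reference annotation, rpl-3, rpl-12 and rpl-22, were not analysed here. Some genes annotated as ribosomal proteins have other names, such as Y37E3.8 (L15P), C37A2.7 (L12AE) and W01D2.1 (L37E). The shares below leave such genes out.

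Each cytosolic ribosome is built from a small subunit, which reads the mRNA, and a large subunit, which joins amino acids and carries a flexible stalk that recruits the GTPase factors of translation. Its proteins are made in balanced amounts, and their mRNAs are short, abundant and present in every tissue. In C. elegans and other animals, lower ribosome production and lower translation are known to go with slower growth and, in the worm, with longer adult life.

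RNA was sequenced from whole worms of the wild type strain N2 at 2 ages, Day 6 of adulthood (3 libraries) and L4, the last larval stage (2 libraries). All animals grew at 20° on E. coli HT115 with L4440, the empty vector of feeding RNAi, on plates with 2 mM IPTG. From L4 onwards the Day 6 animals received FUdR at 25 µg/mL, which blocks DNA replication and so keeps progeny from arising. The L4 larvae did not, so that age and FUdR cannot be told apart. The study describes the libraries as independent biological replicates, and replicate numbers here are those of the sample titles. In lysates of whole worms, fewer cells of a type and less RNA per cell cannot be told apart.

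Day 6 libraries 1, 2 and 3 held 29247719, 13043617 and 13419940 counts in total, and L4 libraries 1 and 2 held 14517986 and 9368922. Levels are CPM, which are counts scaled by TMM to a common library size of 1000000, and fold changes are Day 6 over L4. TMM chooses one scaling factor for each library so that most genes show little change, and the factors were 1.03, 1.63 and 1.25 at Day 6, and 0.294 and 1.62 at L4. The L4 libraries stood apart from each other. L4 replicate 1 had counts for 12442 features and L4 replicate 2 for 14706, while the Day 6 libraries had counts for 15251 to 16634. Because the factor of L4 replicate 1 is so low, its CPM are raised, and the main results for the members are therefore given for each L4 library.

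Ribosomal protein genes took a similar share of all counts in 4 of the 5 libraries and a far larger one in L4 replicate 1. Their share was 24.3%, 20.9% and 25.12% at Day 6 (replicates 1 to 3, in this order throughout), and 48.0% and 20.8% at L4 (replicate 1, then replicate 2). The groups overlapped, and the mean share was 23.4% ± 2.27 at Day 6 (SD, n = 3) and 34.4% ± 19.2 at L4 (SD, n = 2). An exact two-sided permutation test over the 5 libraries gave p = 0.5, and the smallest p this design allows is 0.1. The 95% Wilson interval of the shallowest library, L4 replicate 2, ran from 20.79% to 20.85% and covers counting error only. Yolk protein genes (vitellogenins) filled 11.25% to 16.2% of the counts at Day 6 and 0.0335% and 0.435% at L4. With their counts taken out of the total, the ribosomal protein genes held 29.03%, 23.5% and 29.99% at Day 6, and 48.0% and 20.9% at L4. On that scale L4 replicate 2 had the lowest share of the 5 libraries, and L4 replicate 1 still had the highest.

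**Figure D1:**
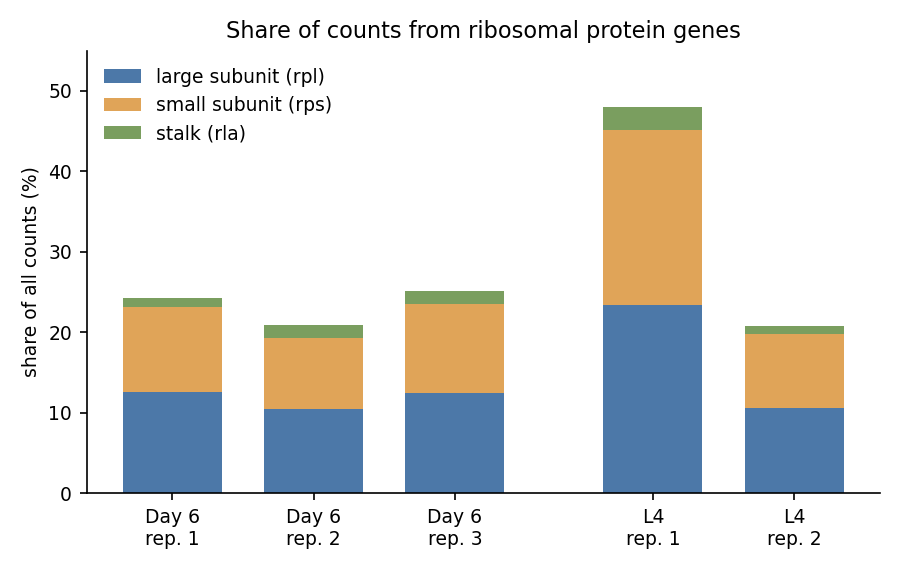
Share of all counts, in percent, from genes of the large subunit, the small subunit and the stalk in each library. The 3 Day 6 bars end between 20.9% and 25.12%, the L4 replicate 1 bar at 48.0% and the L4 replicate 2 bar at 20.8%.

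Both subunits took part in this to a like extent. Large subunit genes held 12.6%, 10.4% and 12.4% of all counts at Day 6, and 23.4% and 10.5% at L4. Small subunit genes held 10.6%, 8.86% and 11.05% at Day 6, and 21.8% and 9.26% at L4. Within the counts of the 78 genes, the small subunit made up 43.7%, 42.5% and 44.0% at Day 6, and 45.4% and 44.5% at L4. The groups did not overlap on this last measure, but the gap was 1.56 percentage points and the exact permutation test gave p = 0.1, the smallest possible. The large subunit made up 51.7%, 49.96% and 49.4% of the members' counts at Day 6, and 48.8% and 50.6% at L4, with overlap between the groups.

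Gene by gene, the Day 6 libraries lay far below L4 replicate 1 and mostly a little above L4 replicate 2. Of the 78 genes, 77 passed the filter on low counts, and rpl-42 did not. The mean of the Day 6 libraries was below L4 replicate 1 in all 77, with a median difference of -3.17 on the log2 CPM scale, which is 8.99-fold higher in L4 replicate 1. Against L4 replicate 2, the Day 6 mean was higher in 65 and lower in 12 of the 77, with a median difference of 0.45. Over all 12758 tested genes, the median difference was 0.86 against L4 replicate 1 and 0.07 against L4 replicate 2. The members kept close together in each comparison, and the middle 50% of them spanned 0.45 log2 units against L4 replicate 1 and 0.46 against L4 replicate 2. For all tested genes these spans were 4.06 and 2.54.

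Part of the distance from L4 replicate 1 depends on scaling. When counts were scaled to library size alone, the median difference of the members was -1.04 against L4 replicate 1, with 75 of 77 lower at Day 6, and 0.11 against L4 replicate 2, with 45 of 77 higher at Day 6. The median of all tested genes was then 2.58 against L4 replicate 1 and -0.25 against L4 replicate 2. Relative to the median of all genes, the members were thus lower at Day 6 than in L4 replicate 1 under both scalings, and higher at Day 6 than in L4 replicate 2.

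**Figure D2:**
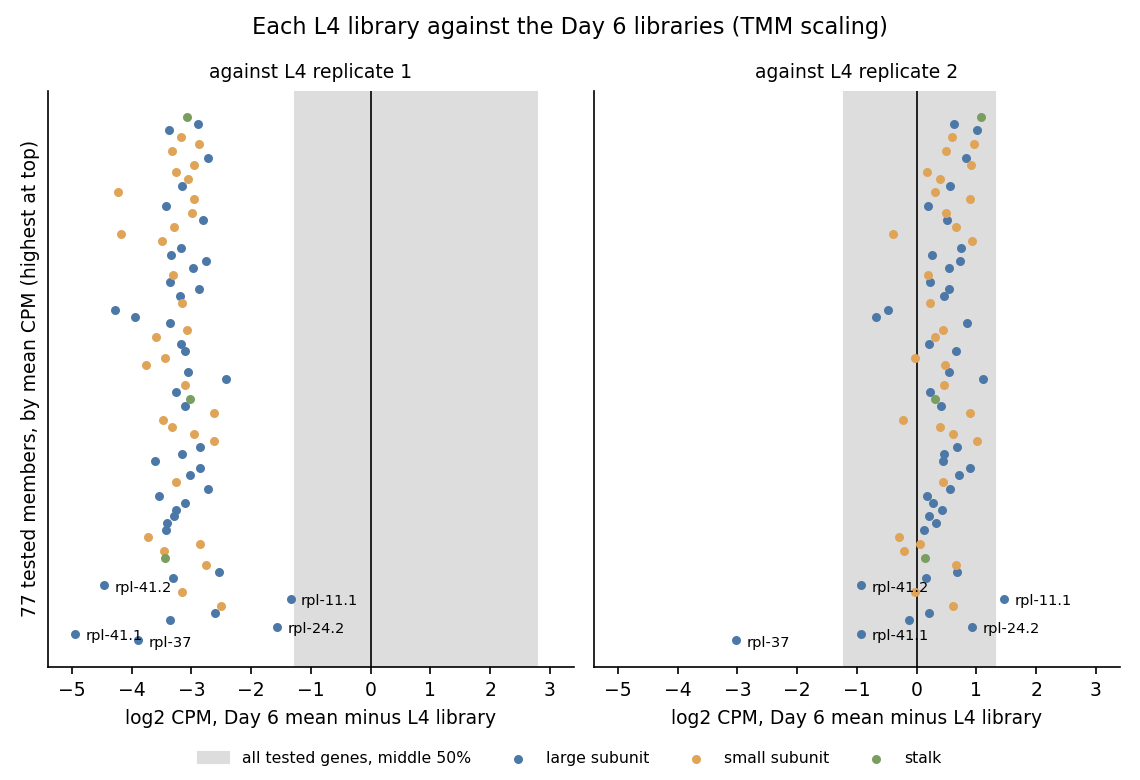
Difference in log2 CPM (TMM scaling) between the mean of the 3 Day 6 libraries and each L4 library for the 77 tested genes, ordered by mean CPM, with the middle 50% of all 12758 tested genes in grey. Against L4 replicate 1 every point lies below 0, around -3.17, and against L4 replicate 2 most points lie just above 0, around 0.45.

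In the quasi-likelihood test of edgeR over all 5 libraries, no member rose and 2 fell (Benjamini-Hochberg adjusted p under 0.05), although the median fitted log2 fold change was -2.25. Among all tested genes 14.3% rose and 12.5% fell, with a median of 0.08. Under other settings of edgeR the members that fell numbered 2 with RLE scaling (15.7% of all genes fell), 3 with upper-quartile scaling (16.1%), 2 with TMM computed without the members (12.8%), 3 with no filter on low counts (10.9%), 2 with a minimum of 1 CPM in 2 libraries (13.2%) and 2 with the exon length trend removed (17.9%). Voom called 1 (12.4%), and scaling to library size called none in either direction (2.57%). Without L4 replicate 1, scaling to library size gave 7 that rose and 5 that fell (15.3% and 26.5% of all genes), and removal of the length trend gave 2 that rose and 1 that fell (25.7% and 24.6%). The standard error of the log2 fold change had a median of 1.29 for the members and 0.75 for all genes. At an unadjusted p under 0.05 there were 6 members, all lower at Day 6, whereas 26.9% of all genes passed even after adjustment. The groups did not overlap in CPM for 6 members, all lower at Day 6, where 23.4% of all genes were lower and 35.4% were higher without overlap. With DESeq2 as the test, 71 members fell and none rose, where 21.7% of all genes fell and 18.0% rose. In edgeR without L4 replicate 1, the members that rose were rpl-11.1 and rpl-24.2 and the one that fell was rpl-37, where 26.0% of all genes rose, 50.1% were called in either direction and 3450 of 14302 fell. Without L4 replicate 2 all 77 fell and none rose, where 3215 of 13268 genes fell, 36.5% rose and 60.7% were called in either direction. A fit with a single L4 library takes its spread from the Day 6 libraries and does not measure variation among L4 animals. Without Day 6 replicate 1, 2 or 3 no member was called in either direction, where 4.50%, 8.14% and 4.43% of all genes were. With the replicate as a block, 1 member fell by title numbers, where 5.06% of all genes fell, and none was called by the numbers in the library names, where 6.04% of all genes were. Day 6 replicate 3 has no L4 partner by title numbers, and Day 6 replicate 1 has none by library-name numbers. Such a library adds nothing to the age difference in its block fit, which rests on the paired libraries alone.

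The stalk genes were, like the other members, highest in L4 replicate 1. The gene rla-0 encodes the P0 protein, which anchors the stalk to the large subunit, and had 7701, 7336 and 9991 CPM at Day 6, against 69473 and 3897 CPM at L4. The groups overlapped, with the Day 6 libraries between both L4 libraries, and the log2 fold change was -2.14 ± 1.59 (SE) with an adjusted p of 0.335 in edgeR. The other rla genes, rla-1 and rla-2, encode the acidic proteins P1 and P2 that bind P0. The gene rla-1 had 2251, 1658 and 2260 CPM at Day 6, against 16586 and 1654 CPM at L4. The gene rla-2 had 988, 715 and 979 CPM at Day 6, against 9570 and 802 CPM at L4. Both were far higher in L4 replicate 1 than in the other 4 libraries, and neither passed the test. C37A2.7, annotated with the same L12AE family as rla-1 and rla-2, is outside the naming rule. It had 1458, 828 and 1312 CPM at Day 6, against 13271 and 957 CPM at L4.

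Next to rla-0, the members of highest mean CPM over the 5 libraries were rpl-4, rpl-10, rps-8 and rps-0. L4 replicate 1 weighs most in that mean, and rpl-10 was below rpl-7, another large subunit gene, in each of the other 4 libraries. The gene rpl-4 encodes a large subunit protein that lines the exit tunnel of the nascent chain. It had 11404, 5021 and 6564 CPM at Day 6, against 53338 and 4677 CPM at L4. The gene rpl-10 encodes a protein added late in the making of the large subunit and had 6145, 3322 and 4762 CPM at Day 6, against 47625 and 2274 CPM at L4. In both, L4 replicate 2 was the lowest of the 5 libraries and L4 replicate 1 the highest. The gene rpl-5, named here as one of the longest members, encodes a protein that binds 5S rRNA and had 6111, 2796 and 4051 CPM at Day 6, against 36722 and 2775 CPM at L4. Of the small subunit, rps-0, whose product is the counterpart of human RPSA, had 8608, 3741 and 5648 CPM at Day 6, against 41630 and 2907 CPM at L4. The gene rps-8 had 6311, 3332 and 5548 CPM at Day 6, against 44347 and 3240 CPM at L4. None of these 5 genes passed the test, with log2 fold changes of -1.92 for rpl-4, -2.40 for rpl-10, -2.19 for rpl-5, -1.89 for rps-0 and -2.23 for rps-8.

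The shortest members were also highest in L4 replicate 1. The gene rpl-39 has the shortest exon length of the members, 236 bases, and encodes a small protein of the exit tunnel. It had 387, 447 and 749 CPM at Day 6, against 3073 and 438 CPM at L4. The gene rpl-29 had 319, 279 and 470 CPM at Day 6, against 3545 and 380 CPM at L4. The gene rps-28 had 527, 459 and 934 CPM at Day 6, against 5453 and 621 CPM at L4. In each of them L4 replicate 2 fell within the range of the Day 6 libraries, and none passed the test.

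The 2 members that fell had, with rpl-42, the 3 lowest mean levels in CPM of the group. The gene rpl-37 lies at chrIII:3528642-3528917 on the plus strand (WBcel235) in a single exon and is annotated with the L37E family of large subunit proteins. It had 50, 17 and 39 counts at Day 6 and 100 and 193 counts at L4, which is 1.66, 0.800 and 2.32 CPM at Day 6, against 23.4 and 12.8 CPM at L4. The groups did not overlap on either scale, and both L4 libraries were higher than all Day 6 libraries. Its log2 fold change was -3.50 ± 0.66 (SE), with an adjusted p of 0.0105 in edgeR. Without L4 replicate 1 its log2 fold change was -2.94. The block fits rest on the paired libraries alone. By title numbers as a block the adjusted p in edgeR was 0.0185, whereas by library-name numbers it was 0.1002. Leaving out a Day 6 library gave adjusted p values of 0.0563 to 0.0719. Another gene of the L37E family, W01D2.1, is outside the naming rule and had 1489, 847 and 1415 CPM at Day 6, against 11175 and 833 CPM at L4. W01D2.1 thus ran with the other members and rpl-37 did not, and how reads common to both genes were counted is not given in the sources used here.

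The other member that fell was rpl-41.1, which with rpl-41.2 encodes the very small and basic protein L41. The genes lie close together on the plus strand of chromosome I, at chrI:4789190-4789592 and chrI:4790292-4790642. The gene rpl-41.1 had 3.45, 5.93 and 8.80 CPM at Day 6, against 177 and 10.8 CPM at L4. All Day 6 libraries were below both L4 libraries, but L4 replicate 2 was close to them. Its log2 fold change was -3.95 ± 1.03 (SE), with an adjusted p of 0.0293 in edgeR, and without L4 replicate 1 it was -0.77 with an adjusted p of 0.204. The block by title numbers gave an adjusted p of 0.0786 and that by library-name numbers 0.274, and leaving out a Day 6 library gave 0.0856 to 0.120. The gene rpl-41.2 had 395, 284 and 526 CPM at Day 6, against 8579 and 743 CPM at L4. Here too both L4 libraries were the highest, and its log2 fold change of -3.54 ± 1.17 (SE) had an adjusted p of 0.0583. At the lower end of the group, rpl-42 had 1, 1 and 0 counts at Day 6 and 2 and 7 counts at L4, too few to compare.

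Exon length was examined because the difference of other genes from L4 replicate 1 changed with it. Among genes other than members, the median log2 difference from L4 replicate 1 was -1.66 for exon lengths up to 400 bases, -0.78 for 400 to 600, -0.48 for 600 to 800, 0.10 for 800 to 1200, 0.93 for 1200 to 2000 and 2.01 above 2000. The members are short, with a median exon length of 518.5 bases and a range of 236 to 1119, against a median of 1222 for all features. Their own differences did not follow that slope, and the medians were -3.16, -3.18, -3.27 and -3.03 in the first 4 of these classes, with 15, 31, 19 and 12 members. Across the 74 members with at least 1000 counts in every library, which share these libraries, Pearson's r between exon length and the difference was -0.09 against L4 replicate 1 and 0.11 against L4 replicate 2. Against L4 replicate 2 the medians of other genes ran between -0.37 and 0.34 over the 6 classes. With the length trend taken out of each library, the median difference of the members was -2.59 against L4 replicate 1 and 0.54 against L4 replicate 2. That step takes the slope of all genes from members that had almost none, so their difference from L4 replicate 1 then varied with exon length by construction. Pearson's r was -0.78 over the 74 members, with medians of -1.99 in the shorter 37 and -2.96 in the longer 37. The part of exon length in the level of L4 replicate 1 was otherwise not tested.

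**Figure D3:**
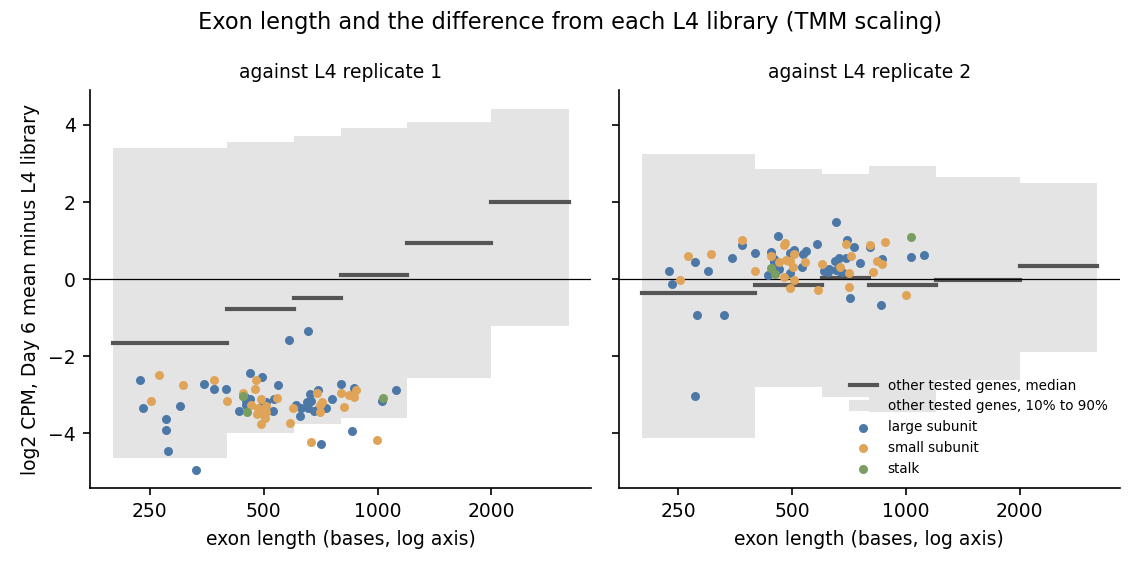
Exon length on a log axis, in bases, and the difference in log2 CPM between the Day 6 mean and each L4 library, with the members as points and other tested genes as medians and 10% to 90% ranges in 6 length classes, the last of which is open above 2000 bases. Against L4 replicate 1 the medians of other genes climb across the classes, to 2.01 in the last, while the members lie around -3.17 at all lengths.

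The relative abundance of the members was then compared within the group, as shares of their summed counts, which removes the scaling of the whole library. The proportions were alike in libraries of the same age. The SD over the 74 members of the log2 difference between 2 libraries was 0.19 to 0.32 among the Day 6 libraries and 0.33 between the L4 libraries, against 0.39 to 0.51 between a Day 6 and an L4 library. Pearson's r of the log2 proportions over the same 74 genes was 0.96 to 0.98 among the Day 6 libraries, 0.95 between the L4 libraries and 0.87 to 0.90 between ages. The members share each library, so these values are descriptions. L4 replicates 1 and 2 were thus nearer to each other in proportions than either was to a Day 6 library, although the summed CPM of the members was 12.7-fold higher in L4 replicate 1.

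Per kilobase of exon, the members of highest mean share over the Day 6 libraries were rps-23, rla-0 and rps-5, but the order differed between libraries. The gene rps-23 encodes a protein of the decoding centre, and its share of the per-kilobase total was 3.07%, 2.59% and 2.98% at Day 6, and 3.23% and 2.87% at L4. The share of rla-0 was 1.90%, 3.30% and 2.80% at Day 6, and 2.44% and 1.71% at L4, with overlap between the groups. The share of rps-5 was 2.90%, 2.05% and 2.03% at Day 6, and 2.00% and 1.71% at L4, and rla-0 was above it in Day 6 replicates 2 and 3 and below it in Day 6 replicate 1. Among the 74 members with a mean over 100 CPM, the highest and the lowest per-kilobase level differed 7.22-fold.

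Scaled to the sum of the members' counts, no member passed the test in edgeR with all 5 libraries, where 0.980% of all genes rose and 1.44% fell. At an unadjusted p under 0.05 there were 7 members, and the share of all genes at that threshold was not taken. The groups did not overlap in 15 members that were higher at Day 6 and 25 that were lower, where 31.4% of all genes were higher and 6.67% were lower without overlap on this scale. The scale holds the members near 0, while the median difference of all tested genes was 3.29 against L4 replicate 1 and -0.41 against L4 replicate 2. The shares of all genes in this paragraph are thus shifted by the scaling and do not show whether the members are unusual in either direction. Relative to the sum and without L4 replicate 1, 5 members rose and 6 fell, where 9.02% of all genes rose and 23.3% fell. Relative to the sum and without L4 replicate 2, 10 rose and 7 fell, where 70.1% of all genes rose and 2.85% fell. Fits with a single L4 library take their spread from the Day 6 libraries and do not measure variation among L4 animals. Without Day 6 replicate 1, 2 or 3 none was called in either direction, where 0.926%, 1.2% and 0.963% of all genes were.

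The gene rpl-11.1 had the highest log2 fold change in proportion, although more abundant members such as rpl-35 gained more in percentage points. It encodes L11, which binds 5S rRNA together with the product of rpl-5. It held 0.796%, 0.692% and 0.682% of the members' counts at Day 6, against 0.204% and 0.369% at L4. All Day 6 libraries were above both L4 libraries, and the log2 fold change relative to the sum was 1.34 ± 0.50 (SE), with an adjusted p of 0.127 in edgeR. It was 0.97 without L4 replicate 1 and 1.83 without L4 replicate 2, in fits that share the Day 6 libraries. On the TMM scale rpl-11.1 had 1877, 885 and 1368 CPM at Day 6, against 3332 and 475 CPM at L4, and a log2 fold change of -0.47 ± 1.01 (SE). The direction for this gene thus differed between the scalings. The gene rpl-35 held 1.82%, 1.47% and 1.71% of the members' counts at Day 6, against 0.995% and 1.08% at L4. Its log2 fold change relative to the sum was 0.68 ± 0.32 (SE), with an adjusted p of 0.309.

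Several members took a smaller share at Day 6. The gene rpl-7A encodes the counterpart of human RPL7A and held 0.999%, 0.877% and 0.880% of the members' counts at Day 6, against 1.58% and 2.08% at L4. Its log2 fold change relative to the sum was -0.99 ± 0.32 (SE), with an adjusted p of 0.0839. The gene rpl-41.2 held 0.167%, 0.222% and 0.262% at Day 6, against 0.525% and 0.577% at L4, with a log2 fold change relative to the sum of -1.34 ± 0.56 (SE) and an adjusted p of 0.205. In neither gene did a Day 6 library reach the level of an L4 library. A pair of others, rpl-1 and rps-2, were picked out after their values were seen. The gene rpl-1, of the large subunit's L1 stalk, held 0.794%, 0.828% and 0.738% at Day 6, against 1.70% and 1.56% at L4, and had an adjusted p of 0.0833. The gene rps-2, of the mRNA entry side of the small subunit, held 1.08%, 1.09% and 0.878% at Day 6, against 2.04% and 1.88% at L4, and had an adjusted p of 0.0839. In all 4 genes the Day 6 libraries lay below both L4 libraries, and no difference passed the test over all 5 libraries. Without L4 replicate 1 the log2 fold changes relative to the sum were -1.18 for rpl-7A, -1.41 for rpl-41.2, -0.98 for rpl-1 and -0.89 for rps-2. Without L4 replicate 2 they were -0.78, -1.27, -1.12 and -1.01. Both fits share the Day 6 libraries, and neither measures variation among L4 animals.

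**Figure D4:**
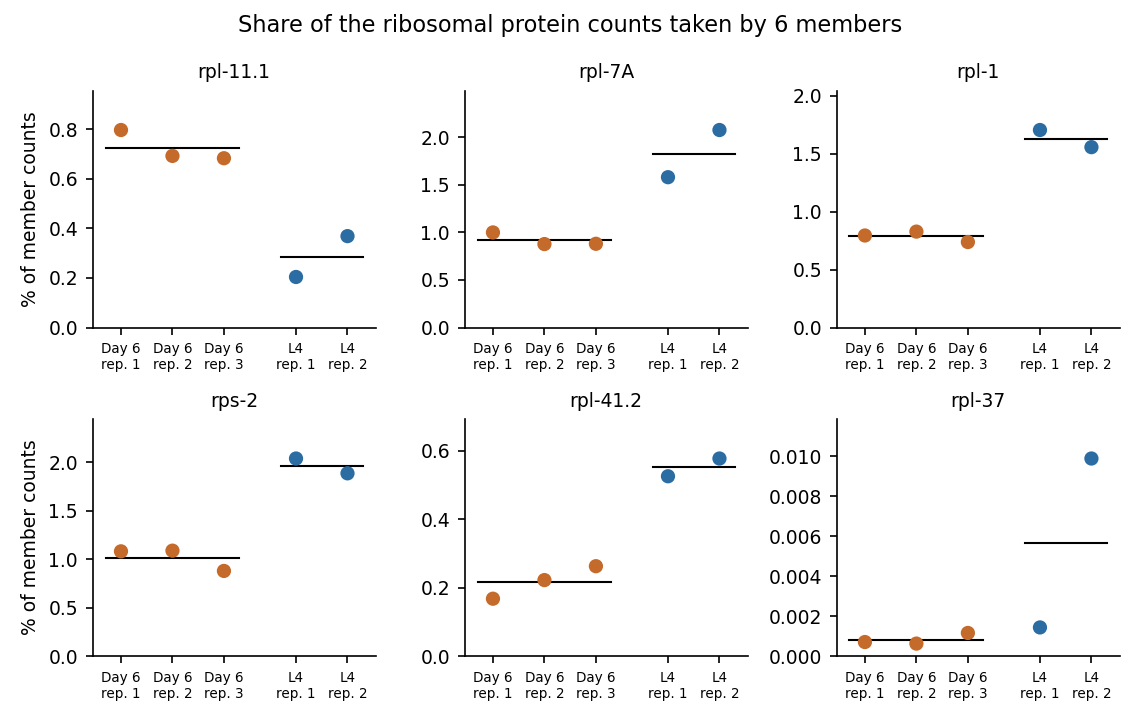
Percent of the members' counts taken by rpl-11.1, rpl-7A, rpl-1, rps-2, rpl-41.2 and rpl-37 in each library, with a line at the mean of each age. In rpl-11.1 the Day 6 points lie above both L4 points and in the other 5 genes drawn they lie below both, whereas in the whole group 15 members were higher and 25 lower at Day 6 without overlap.

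The 4 pairs of paralogs, related genes that share a number in their names, were compared by the ratio of their counts within each library, which does not depend on scaling. The ratio of rpl-11.1, on chromosome V, to rpl-11.2, on chromosome X, was 0.596, 0.497 and 0.546 at Day 6, against 0.135 and 0.353 at L4. The groups did not overlap, and the log2 ratio was higher at Day 6 by 2.01 against L4 replicate 1 and by 0.63 against L4 replicate 2. The exact two-sided permutation p was 0.1, the smallest possible, and 0.2 after Benjamini-Hochberg adjustment over the 4 pairs. The gene rpl-11.2 itself had 3147, 1781 and 2507 CPM at Day 6, against 24665 and 1346 CPM at L4, in the same order as most members. The ratio of rpl-25.1, on chromosome X, to rpl-25.2, on chromosome I, was 0.638, 0.679 and 0.557 at Day 6, against 1.06 and 0.897 at L4. Again there was no overlap, with p = 0.1 in the exact permutation test, and the log2 ratio was 0.65 lower at Day 6. The difference was -0.77 against L4 replicate 1 and -0.53 against L4 replicate 2. These genes encode the protein of the L23 family beside the exit tunnel, and rpl-25.1 and rpl-11.2 are the only members on chromosome X, which holds 14.2% of the features with a known position.

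The remaining pairs showed overlap between the groups. The ratio of rpl-24.1 to rpl-24.2 was 72.7, 36.7 and 64.3 at Day 6, against 126 and 63.7 at L4, with an exact permutation p of 0.5. The gene rpl-24.2 is a distant relative of rpl-24.1, and in yeast the counterpart of rpl-24.2 acts in ribosome assembly rather than in the finished ribosome. It had 75.5, 64.6 and 64.3 CPM at Day 6, against 201 and 35.8 CPM at L4, with a log2 fold change of -0.80 ± 0.71 (SE) and an adjusted p of 0.417. The ratio of rpl-41.1 to rpl-41.2 was 0.00873, 0.0209 and 0.0167 at Day 6, against 0.0207 and 0.0146 at L4, with an exact permutation p of 0.9. How reads that match both genes of a pair were counted is not given in the sources used here, so that the split within a pair is uncertain where the sequences are alike.

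**Figure D5:**
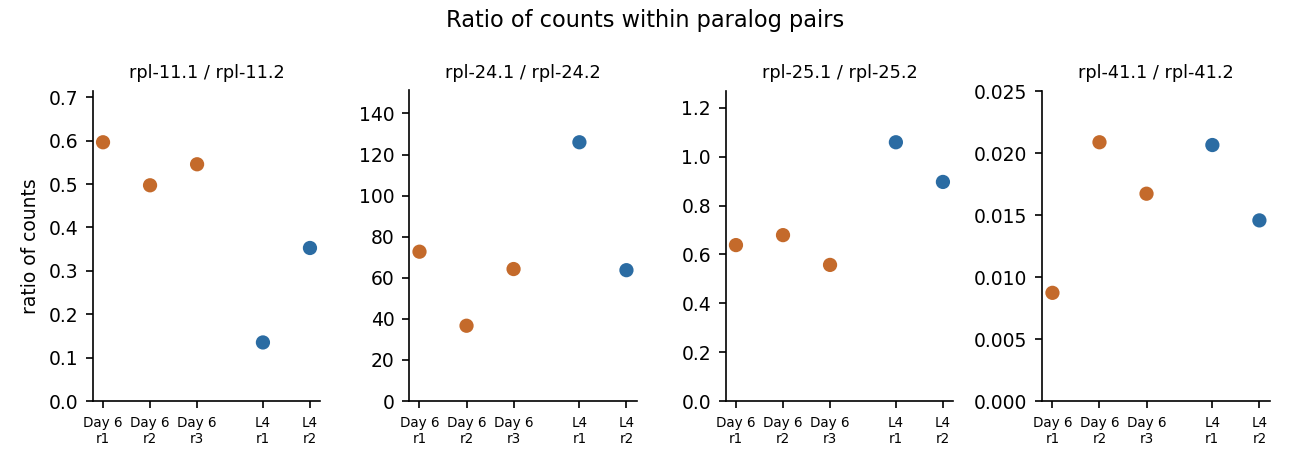
Ratio of counts within each paralog pair, for each library. Day 6 points lie above both L4 points for rpl-11.1 over rpl-11.2 and below both for rpl-25.1 over rpl-25.2, and the groups overlap in the other pairs.

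Many cell type markers differed between the ages in the test over all 5 libraries. Of 8 germline genes tested, 7 rose and none fell, and their summed level was 692 to 1017 CPM at Day 6, against 275 and 172 CPM at L4. All 6 oocyte genes rose, with 3230 to 7252 CPM at Day 6, against 118.9 and 145 CPM at L4. Of 6 sperm genes 4 could be tested and all 4 fell. The 6 summed to 5.47 to 22.5 CPM at Day 6, against 152 and 139 CPM at L4. As a share of all counts this was 0.000564% to 0.00291% at Day 6, against 0.00446% and 0.0225% at L4. The groups overlapped in spe-11, with 0.497, 1.41 and 1.25 CPM at Day 6, against 1.17 and 20.3 CPM at L4. Of those not tested, spe-38 had 3, 3 and 12 counts at Day 6, against 0 and 2 at L4. The other, spe-9, had 2, 0 and 3 counts at Day 6, against 1 and 16 at L4. Of 7 intestinal genes 4 fell and none rose, of 6 body wall muscle genes 3 fell and none rose, and of 6 hypodermal genes 3 fell and 1 rose. Against L4 replicate 1 the Day 6 mean was lower in 6 intestinal, 5 muscle and 4 hypodermal genes. Against L4 replicate 2 it was lower in 7, 6 and 4 of them. The intestinal and muscle genes that turned between the L4 libraries were elt-2 and myo-3. Their log2 differences were 0.98 and 1.21 against L4 replicate 1, and -1.24 and -1.23 against L4 replicate 2. None of 6 neuronal genes was called. The part of these cell types in the proportions of the ribosomal protein genes was not tested.

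Other genes of translation were compared in the same test over all genes. The ubiquitin fusion genes ubl-1 and ubq-2, whose precursors release ubiquitin and a ribosomal protein, did not pass the test, at -2.81 for ubl-1 (adjusted p 0.104) and -2.25 for ubq-2 (adjusted p 0.231) on the log2 scale. The gene ubq-2 had 3130, 1655 and 2673 CPM at Day 6, against 22140 and 1546 CPM at L4, in the order of most members. The gene ubl-1 had 1049, 672 and 891 CPM at Day 6, against 11026 and 1165 CPM at L4. Both L4 libraries were highest for ubl-1, and its log2 difference from L4 replicate 2 was -0.44. Of 9 genes listed with the elongation factors, none rose and 1 fell, with a median log2 fold change of -1.56. The list includes efk-1, which encodes a kinase of eEF2 and not an elongation factor. The median log2 difference of the 9 was -2.32 against L4 replicate 1, where 8 were lower at Day 6 and efk-1 was higher (2.64). Against L4 replicate 2 it was 0.65, and 7 of the 9, with efk-1 (0.46) among them, were higher at Day 6. The gene that fell, iff-2, encodes a form of eIF5A and had 240, 266 and 268 CPM at Day 6, against 5991 and 616 CPM at L4, with an adjusted p of 0.0412. Of 28 initiation factor genes none was called (median -1.18), of 30 ribosome biogenesis genes 1 fell (exos-4.1, of the exosome, adjusted p 0.0496) with a median of 0.63, and of 7 RNA polymerase I genes none was called (median 0.44). Against L4 replicates 1 and 2, the median log2 differences of the initiation factors were -1.84 and -0.18. Those of the ribosome biogenesis genes were 1.23 and 0.21, and those of the RNA polymerase I genes 1.46 and 0.02. Of 68 mitochondrial ribosomal protein genes 27 fell and none rose, with a median of -1.54. Their median log2 difference was -1.92 against L4 replicate 1 and -0.92 against L4 replicate 2, lower at Day 6 in both, where cytosolic members were at -3.17 and 0.45. Whether the 2 sets of genes differ was not tested.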

How the data were processed

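The authors depleted rRNA, made strand-specific cDNA and sequenced single reads, which TopHat2 placed on WormBase release WS254 and featureCounts assigned to genes. Versions and the strand setting are not given in the sources used here. What they deposited are whole-number counts for each gene, with no scaling. Gene positions and exon lengths were those of Ensembl for WBcel235. Counts were compared in R 4.3.3 with edgeR 4.0.16 (TMM, low counts removed by filterByExpr at 10 per library and 15 in total, quasi-likelihood test, Benjamini-Hochberg adjustment over 12758 genes, calls at an adjusted p under 0.05). Log2 CPM used a prior count of 2. The SE of an edgeR log2 fold change is its absolute value divided by the square root of the F statistic of the test. Exact permutation tests used scipy 1.17.1, tables pandas 2.3.3 and figures matplotlib 3.10.9 in Python 3.11.15. The test was also run on simulated counts, in which both L4 libraries had the same mean levels apart from depth. That run therefore does not bear on the difference between the L4 libraries.

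Named members were both genes of each paralog pair, the stalk genes, those called, the 5 of highest and the 5 of lowest mean CPM, the 3 of highest and the 3 of lowest fold change, the 4 highest and the 4 lowest against L4 replicate 2, and the 3 shortest and the 3 longest. Of other translation genes, up to 2 that rose and 2 that fell in each list were named, with both fusion genes. The members, lists and tests were chosen with earlier results of these data known. No sequence is shown. Alternatives were other normalizations (RLE, upper quartile, library size, TMM without the members, the sum of the members), DESeq2 1.42.0, voom in limma 3.58.1, other filters, removal of the exon length trend (lowess, span 0.3), each library left out and a replicate block. Leaving out libraries for the shares, the paralog ratios and the fit relative to the sum of the members, and library size without L4 replicate 1, were chosen after seeing the data. By the labels each cohort was divided between the ages, so that a number may mark a shared cohort, but title numbers (L4 as 1 and 2) and library-name numbers (L4 as 2 and 3) conflict. Deviations from the group means had r of 0.34 and 0.27 for the pairs by title and -0.27 and 0.13 for those by library name. The 2 L4 libraries deviate from their mean by equal and opposite amounts, so 0.27 and -0.27 are the same value with the sign turned. These r do not decide between the pairings, and neither was taken as the main design.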

Additional observations from a re-analysis of the deposited data

How the results depend on the processing

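The main results depended on L4 replicate 1 and on the scaling. The median log2 fold change of the members was -2.25 over all libraries and -3.12 to 0.57 with 1 library left out. It was 0.82 without L4 replicate 1 and with the length trend removed, and 0.12 without L4 replicate 1 at library size. Over all libraries it was -0.59 at library size, -1.70 in voom and -1.69 with the length trend removed. Relative to the sum of the members it was -0.0165, but that scale makes their total equal in every library. It holds the median near 0 by construction and speaks only to proportions within the group. Members that fell numbered 0 to 77 and those that rose 0 to 2 with 1 library left out. DESeq2 gave 71 that fell, voom 1, library size 0, the sum of the members 0, the length trend removed without L4 replicate 1 gave 2 that rose and 1 that fell, and library size without it 7 and 5. Over all genes, 1829 rose and 1600 fell. With 1 library left out 240 to 4837 rose and 298 to 3450 fell. Library size gave 153 and 175, the sum of the members 125 and 184, DESeq2 2296 and 2763, the length trend removed without L4 replicate 1 3591 and 3439, and library size without it 2193 and 3788. Relative to the sum, 0 to 10 members rose and 0 to 7 fell with 1 library left out. The difference in share was -10.98 percentage points, -6.96 without vitellogenin counts and -24.6 to 2.61 with 1 library left out. The log2 ratio of paralogs ranged over such settings from 0.63 to 2.01 for rpl-11.1 to rpl-11.2, -1.18 to -0.20 for rpl-24.1 to rpl-24.2, -0.77 to -0.53 for rpl-25.1 to rpl-25.2 and -0.52 to 0.11 for rpl-41.1 to rpl-41.2. Apart from settings that remove a library or use fewer genes by construction, the cause of these moves was not tested.

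Pairing by title numbers as a replicate block gave 1 member that fell and a median of -1.43, with 817 genes that rose and 645 that fell, and library-name numbers gave 0 members and -1.52, with 412 and 359 genes. The block by title turned rpl-11.1 to 0.0353. In each block fit the Day 6 library without an L4 partner adds nothing to these fold changes.

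Relative to the sum of the members, gains of some members must be met by losses of others. Values on that scale speak only to proportions within the group. Log2 fold changes of single genes turned positive as follows. Scaled to library size they were 0.96 for rpl-11.1, 0.59 for rpl-24.2 and 0.16 for rpl-35. Relative to the sum of the members they were 0.36 for rla-0, 0.11 for rpl-10, 1.34 for rpl-11.1, 0.0539 for rpl-11.2, 0.32 for rpl-24.1, 0.93 for rpl-24.2, 0.39 for rpl-25.2, 0.68 for rpl-35, 0.16 for rpl-39, 0.22 for rpl-4, 0.0424 for rpl-5, 0.38 for rps-0 and 0.0375 for rps-8. Without L4 replicate 1 and with the length trend removed they were 1.33 for rla-0, 0.76 for rla-1, 0.59 for rla-2, 1.29 for rpl-10, 1.78 for rpl-11.1, 1.10 for rpl-11.2, 1.13 for rpl-24.1, 1.21 for rpl-24.2, 0.57 for rpl-25.1, 1.10 for rpl-25.2, 0.67 for rpl-29, 1.61 for rpl-35, 1.02 for rpl-39, 0.97 for rpl-4, 0.87 for rpl-5, 1.25 for rps-0, 0.77 for rps-28 and 0.87 for rps-8. With 1 library left out they ranged from -3.05 to 1.17 for rla-0, -3.004 to 0.39 for rla-1, -3.41 to 0.23 for rla-2, -3.32 to 1.13 for rpl-10, -1.27 to 1.61 for rpl-11.1, -3.31 to 0.96 for rpl-11.2, -2.66 to 0.88 for rpl-24.1, -1.56 to 1.01 for rpl-24.2, -3.26 to 0.26 for rpl-25.1, -2.48 to 0.80 for rpl-25.2, -2.34 to 1.27 for rpl-35, -2.54 to 0.34 for rpl-39, -2.79 to 0.79 for rpl-4, -3.08 to 0.71 for rpl-5, -2.79 to 1.12 for rps-0, -3.08 to 0.12 for rps-28 and -3.12 to 0.72 for rps-8. The highest of these values were those without L4 replicate 1. With 2 L4 libraries that differ in depth and in the number of features with counts, no setting separates age from the difference between them.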
